A study of Mus musculus with 4 samples.

Results

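The genes described here are 10 C-type lectin receptors of myeloid cells, Clec4a1, Clec4a2, Clec4a3, Clec4d, Clec4e, Clec4n, Clec5a, Clec7a, Clec10a and Clec12a. They are 10 of the 55401 Ensembl genes in the deposited count table, chosen by name with earlier results of these data known. All 10 passed the filter on low counts. Poly(A) RNA was sequenced from bone marrow-derived macrophages, macrophages raised from marrow precursors in a dish, of C57BL/6J mice. In 2 libraries the marrow cells had received lentivirus with CRISPR-Cas9 against Adcy7, the gene of an adenylyl cyclase that makes cyclic AMP (Adcy7 knockout), and in 2 libraries the same kind of virus against the Rosa locus, a common neutral target (Rosa control). Both groups got virus on day 1 (multiplicity of infection 30), differentiated over 5 days and carry batch number 1. No further stimulus is named in the labels. They also do not say how many mice, cultures or guides stood behind each library, so p-values reflect only how far these 4 libraries scatter, possibly for technical reasons, and differences between guides or cultures cannot be told apart from the target.

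C-type lectin receptors share a fold that in many members binds sugars in a calcium-dependent way. On macrophages, neutrophils and dendritic cells they recognise fungal and mycobacterial cell walls and material of dead cells. Activating members signal through a tyrosine motif, their own or that of a partner adaptor, to the kinase Syk and on to Card9, Bcl10 and Malt1, while inhibitory members carry a motif that recruits the phosphatases Ptpn6 and Ptpn11.

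Library totals were 61782358 to 71914179 estimated counts, and levels are given in CPM, each count scaled to the same library total. Adcy7 mRNA was at 59.4 and 58.8 CPM in the knockout libraries, against 122 and 125 CPM in the control libraries, or 48.4% of the control level (log2 fold change -1.05, SE 0.09), so the transcript was lower but present. Of 15832 genes tested with edgeR's quasi-likelihood test, 49.6% passed an adjusted p of 0.05, 25% higher and 24.6% lower in the knockout. The macrophage markers Lyz2 (16468 and 16440 CPM in the knockout, against 50358 and 52209 CPM in the control), Csf1r (1307 and 1168 CPM in the knockout, against 1812 and 1806 CPM in the control) and Marco (463 and 434 CPM in the knockout, against 2433 and 2609 CPM in the control) were present in every library. Of 16 macrophage markers, 15 were lower in the knockout and 0 higher, where 24.6% of all tested genes were lower. Some of the 15, such as C1qa, C1qb and Mrc1, picked for that, passed the low-count filter only through the control. No direction of these markers is therefore read from the count. Cd68, named after its values were seen, did not pass (956 and 894 CPM in the knockout, against 916 and 855 CPM in the control). Several of the 15 were nearly absent in the knockout, and some are named for that. C1qa had 0.0556 and 0 CPM in the knockout, against 76.5 and 66.9 CPM in the control. C1qb had 0.487 and 0.0647 CPM in the knockout, against 453 and 384 CPM in the control. Mertk had 0.278 and 0.356 CPM in the knockout, against 18.3 and 16.7 CPM in the control. These are bulk libraries, in which fewer cells of a type and less RNA per cell cannot be told apart.

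The 10 receptor genes split in direction. Clec4n, Clec4e, Clec4d and Clec5a were higher in the knockout, Clec10a, Clec12a, Clec4a3, Clec4a1 and Clec4a2 were lower, and Clec7a did not pass. That is 9 of 10 called, 4 higher and 5 lower, beside 49.6% of all tested genes. Past a 2-fold change, 7 of 10 were called, 2 higher and 5 lower, where 22.2% of all tested genes were. The median size of the log2 fold change, regardless of sign, was 2.22 over the 10 genes and 0.53 over all tested genes. Their summed level was 5249 and 6181 CPM in the knockout libraries, against 1779 and 1883 CPM in the control libraries. In 9 of the 10 genes the knockout and control libraries did not overlap, as in 75.2% of all tested genes. The 10 genes were chosen with earlier results of these data known, so these comparisons with all tested genes only describe them.

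**Figure D1:**
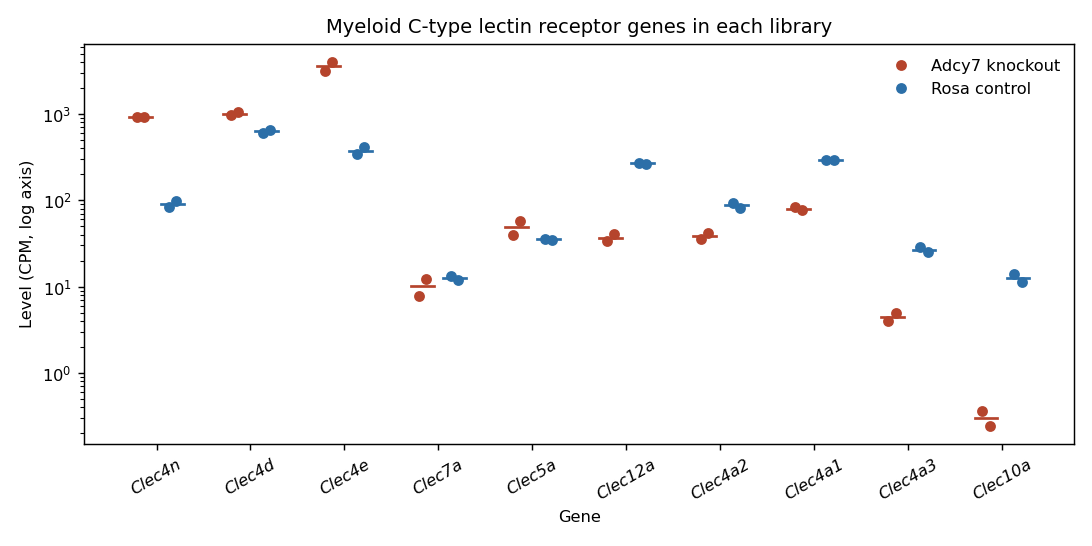
Level of each of the 10 receptor genes in CPM on a log axis, with 1 point per library and a bar at the mean of the 2 libraries of a group. Clec4n and Clec4e stand about 1 step of the log axis higher in the knockout, Clec10a lies below 1 CPM in the knockout alone, and the Clec7a points overlap.

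Clec4n, Clec4e and Clec4d, whose proteins work with the FcR gamma chain (Fcer1g), rose; they are described together for that role, with their values known. Clec4n (ENSMUSG00000023349) codes for Dectin-2, which binds fungal mannans. Clec4n was at 929 and 924 CPM in the knockout libraries, against 83.6 and 98.0 CPM in the control libraries. Both knockout libraries were nearly equal and far above both controls. Clec4n rose 10.3-fold (log2 fold change 3.36, standard error or SE 0.11, edgeR adjusted p of 3.16e-09). Clec4e (ENSMUSG00000030142) codes for Mincle, a receptor for mycobacterial cord factor and for material released by dying cells. Clec4e had 3158 and 3968 CPM in the knockout libraries, against 341 and 411 CPM in the control libraries. The knockout libraries differed more from each other here than for Clec4n, yet the lower of them lay far above both controls. Clec4e rose 9.56-fold (log2 fold change 3.26, SE 0.14, adjusted p of 1.68e-08), and by mean CPM it ranked 18th of all genes in the knockout and 372nd in the control. Clec4d (ENSMUSG00000030144) codes for MCL, which pairs with Mincle and helps it reach the cell surface. Clec4d was at 959 and 1054 CPM in the knockout libraries, against 601 and 655 CPM in the control libraries. The groups were separate, but the step was smaller than for its partner, 1.62-fold (log2 fold change 0.69, SE 0.10, adjusted p of 0.000129).

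The balance between these partners was read in each library. There were 3.29 and 3.77 Clec4e counts for each Clec4d count in the knockout libraries, against 0.567 and 0.627 in the control libraries. The ratio of Clec4e to Clec4n was 3.40 and 4.29 in the knockout and 4.08 and 4.19 in the control, where the groups overlapped. These ratios were picked after the values were seen and were not tested.

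Clec5a (ENSMUSG00000029915) codes for MDL-1, which signals through the adaptors Tyrobp (DAP12) and Hcst (DAP10). Clec5a had 39.5 and 57.5 CPM in the knockout libraries, against 35.7 and 34.8 CPM in the control libraries. The first knockout library lay close to the controls and the second well above them. Its rise of 1.39-fold (log2 fold change 0.47, SE 0.15, adjusted p of 0.0221) rests on knockout replicate 2. Without that library the log2 fold change was 0.21 and the adjusted p 0.114, and without the low-count filter the adjusted p was 0.129, in a range of 0.000133 to 0.129 over all alternatives. Clec7a (ENSMUSG00000079293) codes for Dectin-1, the receptor for fungal beta-glucan, which carries a tyrosine motif in its own tail. Clec7a had 7.88 and 12.2 CPM in the knockout libraries, against 13.4 and 12.02 CPM in the control libraries. The second knockout library fell between the control libraries. The log2 fold change was -0.34 with a 95% interval of -0.75 to 0.08 (adjusted p of 0.163); both a clear fall and a small rise lie inside that interval. Without knockout replicate 2 it was -0.64 with an adjusted p of 0.00649, and without knockout replicate 1 it was -0.06, over a range of adjusted p of 0.00649 to 0.770 across alternatives. The mouse annotation used for gene names lists this gene as a polymorphic pseudogene.

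Clec12a and Clec4a2, the genes among the 10 known here for an inhibitory motif, were both lower, where 24.6% of all tested genes were, and were put side by side with their values known. Clec12a (ENSMUSG00000053063) codes for MICL, an inhibitory receptor for uric acid crystals of dead cells. Clec12a was at 33.4 and 40.4 CPM in the knockout libraries, against 273 and 264 CPM in the control libraries. The libraries of each group lay close together and far from the other group. The log2 fold change of Clec12a was -2.85 (SE 0.11, adjusted p of 7.35e-09), or 13.8% of the control level. Clec4a2 (ENSMUSG00000030148) codes for DCIR, whose tail carries an inhibitory motif. Clec4a2 had 35.8 and 42.2 CPM in the knockout libraries, against 93.4 and 82.1 CPM in the control libraries. With separate groups it fell to 44.8% of the control level (log2 fold change -1.16, SE 0.11, adjusted p of 7.53e-06), the smallest fall of the 5 genes.

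Clec4a1 (ENSMUSG00000049037) and Clec4a3 (ENSMUSG00000043832), also named Dcir4 and Dcir3, belong to the same group of DCIR-related genes. Clec4a1 was at 82.4 and 77.8 CPM in the knockout libraries, against 295 and 290.5 CPM in the control libraries, or 27.7% of the control level (log2 fold change -1.85, SE 0.09, adjusted p of 5.71e-08). Clec4a3 was at 3.96 and 4.90 CPM in the knockout libraries, against 28.7 and 24.9 CPM in the control libraries, or 16.7% of the control level (log2 fold change -2.59, SE 0.16, adjusted p of 2.1e-07). In both genes the libraries of a group were alike and the groups well apart.

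Clec10a (ENSMUSG00000000318) codes for MGL1, a receptor for terminal galactose and N-acetylgalactosamine that is a common marker of alternatively activated macrophages. Clec10a had 26 and 15 counts in the knockout libraries, against 924 and 795 counts in the control libraries, which is 0.362 and 0.243 CPM in the knockout, beside 14.0 and 11.4 CPM in the control. Only a trace was left in either knockout library. The 16 macrophage markers summed to 20699 to 20921.5 CPM in the knockout, against 61618 to 63200.0 CPM in the control. Most of each sum was Lyz2, at 16468 and 16440 CPM in the knockout, against 50358 and 52209 CPM in the control. The median log2 fold change of the 16 markers was -3.06. No direction is read from that median, since some of the 16 passed the low-count filter only through the control. The part of the 16 markers in the falls of Clec10a, Clec12a and the Clec4a genes was not tested. The log2 fold change of Clec10a, -5.35 (SE 0.30, adjusted p of 1.29e-07), or 2.46% of the control level, was the largest of the 10 genes in either direction. Among all called genes, 98 fell further than Clec10a and 530 rose further than Clec4n. Mgl2, the close relative of Clec10a, was near the limit of detection, with no count in the knockout and 0.152 and 0.272 CPM in the control. Of the 50-base stretches in annotated Clec10a transcripts 8.49% also occur in other C-type lectin genes, mostly Mgl2, and of those of Clec4a2 6.15%, mostly in Clec4a4, so a small part of these counts could be split. The other 8 genes shared none.

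**Figure D2:**
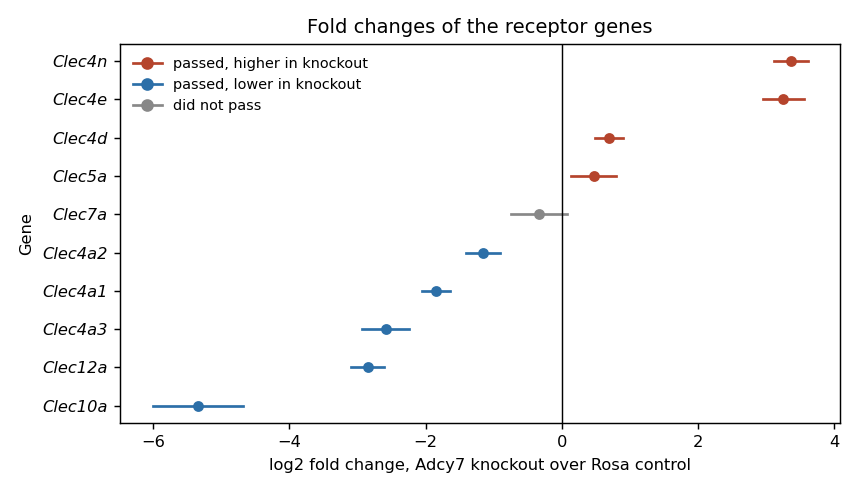
Fitted log2 fold change of each receptor gene, Adcy7 knockout over Rosa control, with its 95% interval. The values run from 3.36 for Clec4n to -5.35 for Clec10a, and Clec7a is the one interval that crosses 0.

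The make-up of the receptor message differed between the groups. Clec4e alone held 60.2% and 64.2% of the counts of the 10 genes in the knockout libraries, against 19.2% and 21.8% in the control libraries. Clec4n, Clec4d and Clec4e together held 96.1% and 96.2% in the knockout and 57.6% and 61.8% in the control. Clec4a1, Clec4a2 and Clec4a3 together held 2.33% and 2.02% in the knockout, against 23.4% and 21.1% in the control. Divided by the length of all annotated exons, Clec4e held 32.2% and 36.3% of the summed level in the knockout libraries, against 8.43% and 9.62% in the control libraries, and the set of Clec4n, Clec4d and Clec4e held 95.6% and 95.7% in the knockout, against 61.8% and 65.3% in the control. The share of Clec4e depends on the length chosen, and with the longest RefSeq-linked transcript it was 44.3% and 48.8% in the knockout libraries, against 13.01% and 14.8% in the control libraries. These groupings were made after the values were seen.

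Since longer transcripts collect more counts, levels of different genes were compared as CPM per kilobase of annotated exons. On that scale Clec4e, Clec4n and Clec4d stood at 718, 652 and 629 CPM per kilobase in the knockout, far above Clec4a1 at 51.4 and Clec4a2 at 13.3. In the control the order was Clec4d at 393, Clec4a1 at 188, Clec4e at 75.7, Clec4n at 64.0 and Clec12a at 48.6 CPM per kilobase. Among the first 3 in the knockout, the order depends on the length used and on the library. With the longest RefSeq-linked transcript as the length, an alternative chosen after seeing the data, Clec4e was at 1415 CPM per kilobase in the knockout, against 761 for Clec4d and 754 for Clec4n. In the control Clec4d, Clec4a1 and Clec4e led in that order with both lengths, but Clec12a, at 107 CPM per kilobase with the transcript length, then stood above Clec4n at 73.9.

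Of the 10 genes, 9 are on chromosome 6 and Clec10a is on chromosome 11. Clec4a1, Clec4a3, Clec4a2, Clec4n, Clec4d and Clec4e lie in 1 block of 9 C-type lectin genes on chromosome 6 with no other protein-coding gene between them, given here by order only. Along the block, the genes that fell and the genes that rose were not mixed. From the Clec4a1 end, Clec4a1, Clec4a3, Clec4a4, Clec4b1 and Clec4a2 fell, Clec4b2 did not pass, and Clec4n, Clec4d and Clec4e at the other end rose. Of all tested genes, 25% were higher and 24.6% lower. Clec4a4 and Clec4b1 passed the low-count filter only through the control, so a fall was the only call open to them. The order along the block was not tested. Clec4a4 had 6 counts over both knockout libraries and was at 1.70 and 1.06 CPM in the control. Clec4b1 had no count in the knockout and was at least 11.6-fold lower there than in the control, against a floor of 12 counts over the pooled libraries. Clec4b2 was at 0.904 and 2.56 CPM in the knockout, beside 1.41 and 1.59 CPM in the control. The genes that border the block on either side, Gm5316 and Vmn2r19, had no count in any library. Clec12a and Clec7a lie in a second block on chromosome 6. Clec1b, between them, rose to 2.52 and 2.78 CPM in the knockout, against 0.152 and 0.329 CPM in the control. Clec1b is also a platelet marker. Of 12 platelet markers, Clec1b among them, 12 were higher in the knockout, where 25% of all tested genes were. Their sums were 325 to 367 CPM in the knockout, against 186 to 202 CPM in the control. Most of each sum was Pf4, at 207 and 189 CPM in the knockout, against 170 and 153 CPM in the control. The part of platelets in the rise of Clec1b was not tested. The other neighbours of Clec1b, Clec12b, Clec9a and Clec1a, had at most 0.194 CPM in any library.

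**Figure D3:**
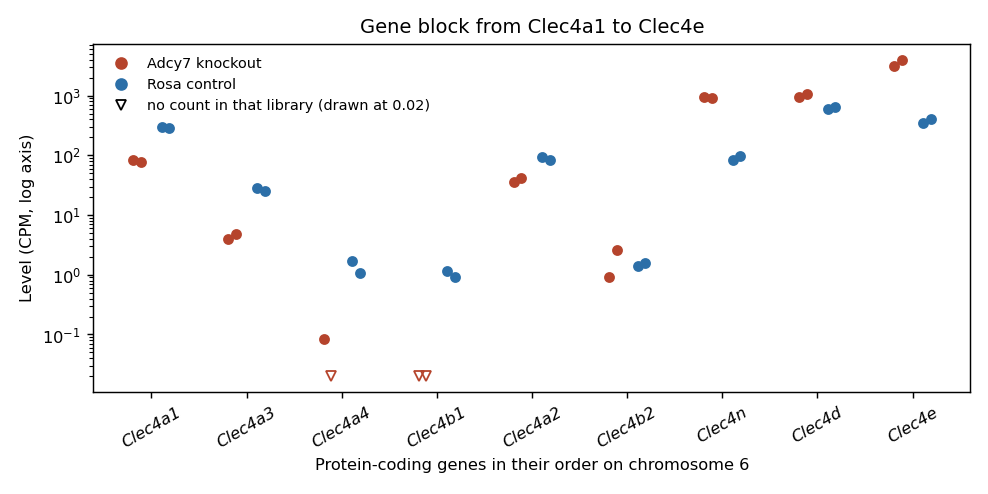
Level in CPM, on a log axis, of the 9 protein-coding genes of the chromosome 6 block in their order on the chromosome, with 1 point per library and open triangles for libraries with no count. Knockout points lie below control points from Clec4a1 to Clec4a2, overlap with them at Clec4b2 and lie above them from Clec4n to Clec4e.

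The sequences before the start sites of Clec4e and Clec4d, which rose, and of Clec4a1, which fell, are shown because these neighbours moved in opposite directions. They are the 250 bases before the annotated start, from RefSeq on build GRCm38.p6, written 5′ to 3′ on the strand of the gene. Capitals mark matches on either strand to TTGCNNAA, a core of the C/EBP motif, or to GAGGAA, a core of the PU.1 motif, where N is any base. The Clec4e window is chr6:123289872-123290121 (minus strand), the Clec4d window chr6:123261857-123262106 (plus strand) and the Clec4a1 window chr6:122921598-122921847 (plus strand).
Clec4e: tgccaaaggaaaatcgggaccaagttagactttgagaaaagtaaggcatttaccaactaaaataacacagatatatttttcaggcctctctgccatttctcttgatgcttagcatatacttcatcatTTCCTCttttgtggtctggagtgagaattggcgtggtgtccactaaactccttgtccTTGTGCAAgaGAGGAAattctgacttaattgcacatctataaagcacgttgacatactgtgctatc
Clec4d: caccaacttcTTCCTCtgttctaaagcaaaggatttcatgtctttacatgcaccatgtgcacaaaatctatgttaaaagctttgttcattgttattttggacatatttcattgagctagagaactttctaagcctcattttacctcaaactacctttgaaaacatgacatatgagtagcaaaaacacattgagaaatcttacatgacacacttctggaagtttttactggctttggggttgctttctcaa
Clec4a1: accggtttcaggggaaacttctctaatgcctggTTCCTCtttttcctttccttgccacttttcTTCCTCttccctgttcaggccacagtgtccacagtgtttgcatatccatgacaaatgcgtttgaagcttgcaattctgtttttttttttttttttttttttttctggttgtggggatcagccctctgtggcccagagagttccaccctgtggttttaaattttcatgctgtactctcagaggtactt
The Clec4e window held GAGGAA 56 to 51 bases before the start, its reverse complement 123 to 118 bases before, and a C/EBP match 66 to 59 bases before, none of them overlapping. The Clec4d window held 1 PU.1 match, and the Clec4a1 window held 2, all on the opposite strand. Of the 8 receptor genes with a window in the table, 7 had GAGGAA on either strand in at least 1 window, including genes that rose, genes that fell and Clec7a, where 23.3% of all 32851 windows of this length hold it. TTGCNNAA was present for 2 of the 8, Clec4e and Clec12a, against 9.56% of all windows. TGANTCA (AP-1) was present for Clec12a alone (6.75% of all windows), the NF-kB core (GGG and CC with any 5 bases between) for Clec4a1 alone (45.8%), as 2 overlapping matches, and TGACGTCA, the cyclic AMP response element, in no window of these genes (1.55%). Clec4n and Clec10a, with the largest rise and the largest fall of the 10 genes, had no window, so these searches do not cover them. A match describes letters in the window and is not evidence of binding.

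The adaptors and the signalling chain, like the receptors, held genes of both directions. Among the 22 genes of the list, all tested, 8 went up, 10 went down and 4 missed the threshold, where 25% of all tested genes were higher and 24.6% lower. The median log2 fold change was -0.12 over the list and 0.01 over all tested genes. Fcer1g, the adaptor of Clec4n, Clec4d and Clec4e, was at 1214 and 1164 CPM in the knockout libraries, against 937 and 1003 CPM in the control libraries, a rise of 1.24-fold (adjusted p of 0.0186). Of the Clec5a adaptors, Hcst rose 1.5-fold to 23.5 and 23.8 CPM in the knockout, against 16.1 and 15.9 CPM in the control, while Tyrobp fell to 550.4 and 505 CPM in the knockout, against 769 and 794 CPM in the control. Syk, the kinase the adaptors recruit, rose 1.58-fold to 574 and 556 CPM in the knockout, against 356 and 367 CPM in the control.

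The rest of the chain, before and after Syk, did not move as 1. Card9, the scaffold protein, had 30.0 and 29.1 CPM in the knockout libraries, against 56.1 and 47.5 CPM in the control libraries, and fell by 0.79 on the log2 scale (SE 0.11). Its partner Bcl10 had 74.0 and 73.9 CPM in the knockout, beside 75.7 and 79.2 CPM in the control (log2 fold change -0.05, 95% interval -0.26 to 0.16). Malt1, the protease of that complex, rose 7.19-fold to 118 and 141 CPM in the knockout, against 16.5 and 19.8 CPM in the control. Src, a kinase that phosphorylates the tyrosine motifs, rose 43.2-fold to 46.0 and 48.0 CPM in the knockout, against 0.943 and 1.25 CPM in the control, and Lyn, of the same kinase family, fell by 0.83. Blnk, a linker protein below Syk, rose 3.25-fold, and Cyba, a subunit of the NADPH oxidase, rose to 1145 and 1032 CPM in the knockout, against 667 and 679 CPM in the control.

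Among the phosphatases that inhibitory receptors recruit, Ptpn6 and Inpp5d fell and Ptpn11 did not pass. Ptpn6 (SHP-1) was at 248 and 248 CPM in the knockout libraries, against 516 and 499.6 CPM in the control libraries, a fall of 1.02 on the log2 scale (SE 0.09, adjusted p of 3.21e-06). Inpp5d (SHIP) fell by 0.70 on the log2 scale. Ptpn11 (SHP-2) had 76.5 and 76.9 CPM in the knockout, beside 64.5 and 72.6 CPM in the control (log2 fold change 0.18, 95% interval -0.05 to 0.40). Vav1, an exchange factor below Syk named after its values were seen, also did not pass (log2 fold change 0.18).

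**Figure D4:**
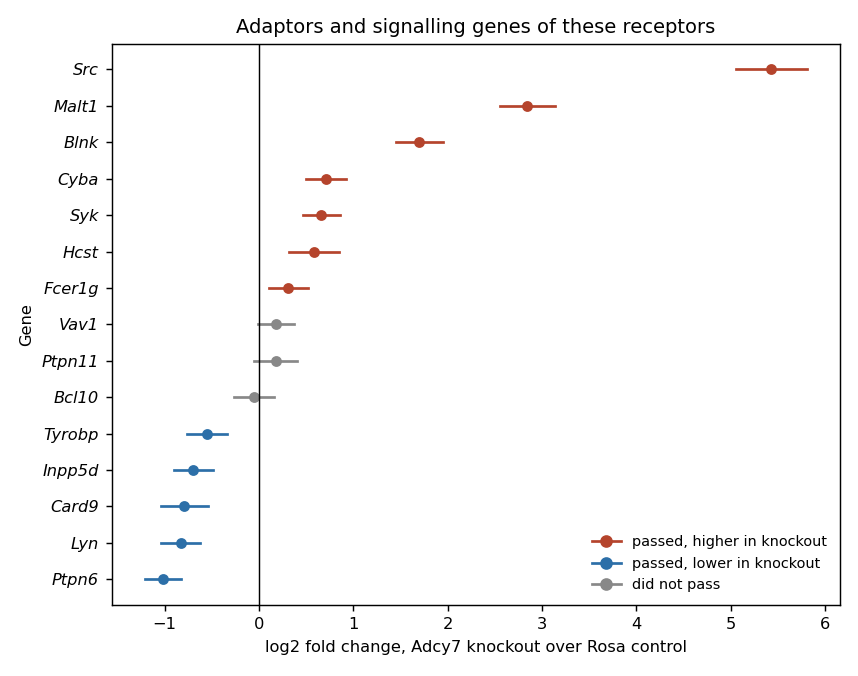
Fitted log2 fold change with its 95% interval for the 15 adaptor and signalling genes named in the text, Adcy7 knockout over Rosa control. Src at 5.43 and Malt1 at 2.85 stand apart at the top, most others lie between 1 and -1, and Ptpn6 at -1.02 is lowest.

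The Syk and Card9 output list holds 16 genes taken here as induced through this signalling, not all of them known to need Card9. Of these 16 genes 12 went up, 2 went down and 2 missed the threshold, with a median log2 fold change of 4.28, where 25% of all tested genes were called higher. Some of them passed the low-count filter only through the knockout, such as Csf2 and Il23a (51 and 32 counts in the knockout, 0 and 4 in the control), picked for that. No direction of the list is therefore read from the count or the median. Csf3, the gene of a neutrophil growth factor, had 109 and 87.3 CPM in the knockout libraries, against 0.821 and 1.13 CPM in the control libraries. Il12b, the shared subunit of interleukins 12 and 23, had 14.6 and 21.0 CPM in the knockout, against 0.289 and 0.143 CPM in the control. Cxcl1, Cxcl2, Ptgs2, Il6, Il10 and Tnf rose 91.9-fold, 18.9-fold, 40.8-fold, 147-fold, 36-fold and 3.32-fold. Csf2, another growth factor gene, had 154 and 108 counts in the knockout and none in the control, so it was at least 22.2-fold higher, against the pooled floor of 12 counts. Egr1, an early response gene, went the other way, with 96.7 and 113 CPM in the knockout, against 401 and 342 CPM in the control (log2 fold change -1.81). Nfatc1 was also lower (-0.38), Egr2 and Egr3 did not pass (-0.19 and -0.22), and Csf2 and these 4 genes were named after their values were seen. Many of these genes also answer to other receptors, and which receptor signalled was not measured.

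Of 55 other C-type lectin genes of the mouse, 17 had no count in any library, among them Cd207 and Cd209b to Cd209g, and 29 in all stayed below the filter. Of the 26 that passed it, 5 were higher, 15 lower and 6 without a call. Their median log2 fold change was -1.30, or -1.26 with the 4 genes that had no knockout count set at their bound. Olr1, the receptor for oxidised lipoprotein that borders Clec7a, rose 16.3-fold to 15.6 and 19.8 CPM in the knockout, against 0.973 and 1.20 CPM in the control. Ly75, Cd302 and Layn rose 5.85-fold, 2.24-fold and 2.39-fold. Mrc1, the mannose receptor, had 8 counts over both knockout libraries and was at 28.3 and 22.1 CPM in the control. Cd93 and Cd72 had log2 fold changes of -2.58 and -1.33. Of all tested genes 24.6% were lower, but several of the 15 lower genes, such as Clec4b1, Mgl2, Pla2r1 and Asgr2 with no knockout count, picked for that, passed the filter only through the control, so no direction of the family is read from the count or the median.

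Several of the 10 receptors are also found on neutrophils, monocytes and dendritic cells, whose markers were read in the same libraries. Neutrophil markers summed to 7981 to 9305 CPM in the knockout libraries, against 9382 to 10822 CPM in the control libraries, with 2 of 16 higher and 9 lower. Mmp9, S100a9 and Ngp had the highest mean levels of those 16, of which Mmp9 was lower in the knockout and the others did not pass, and S100a9 was at 1700 and 2407 CPM in the knockout, beside 2373 and 2090.5 CPM in the control. The 2 that were higher were Mmp8 and Stfa2l1, named after their values were seen. Without Mmp9 the sums of the other 15 genes overlapped between the groups, at 6208 and 7873 CPM in the knockout, against 8023 and 6673 CPM in the control. Monocyte markers summed to 2275 to 2837 CPM in the knockout, against 3624 to 3896 CPM in the control, with 1 of 10 higher, Chil3, and 8 lower. Dendritic cell markers summed to 395 to 474 CPM in the knockout, against 94.9 to 109 CPM in the control, with 6 of 12 tested higher and 3 lower, most of it Cd24a, Ccl22 and Ccr7. The other 3 that were higher, Flt3, Zbtb46 and Itgax, rose 2.60-fold, 3.20-fold and 2.53-fold but reached at most 4.99 CPM, Batf3, Kmo and Dpp4 fell, and Xcr1, Clec9a and Naaa did not pass, all 9 named after their values were seen. Eosinophil markers were higher in 8 of 9 tested genes (249 to 309 CPM in the knockout, against 32.8 to 36.6 CPM in the control). Mast cell and basophil markers were higher in 7 of 9 (114 to 120.2 CPM in the knockout, against 28.7 to 38.0 CPM in the control), with Cma1 and Tpsab1 at 0. B cell markers were higher in 6 of 9 and lower in 2 (144 to 145 CPM in the knockout, against 169.7 to 174 CPM in the control). Of T and NK cell markers 4 were tested, 1 higher and 1 lower (9.76 to 11.1 CPM in the knockout, against 4.77 to 5.32 CPM in the control), with Ncr1 and Gzma at 0. Of all tested genes 25% were higher and 24.6% lower. Some of the higher markers passed the low-count filter only through the knockout, such as Ear6, Ear1 and Vpreb3, picked for that. Ear6 had no control count, Ear1 had 8 and 0 counts in the control libraries, and Vpreb3 had 3 and 0. No direction of a cell type is therefore read from these counts of markers. The part of these other cells in the values of the 10 receptors was not tested.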

How the data were processed

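Poly(A) RNA-seq libraries, 2 Adcy7 knockout and 2 Rosa control, were used, grouped by sample title. The deposited table holds estimated counts (expected counts) per Ensembl gene, as whole numbers. The tools named in the submitters' processing notes are fastp, StringTie, HISAT2 and edgeR, with build GRCm39. Their versions and the strand setting were not given in the sources used. Among low counts, multiples of 4 were in excess (30.54% to 32.17% of values from 1 to 40), so 1 fragment may be worth about 4 counts, and the floor of 12 counts stands for 3 fragments on that assumption. Floors cover counting error only, since PCR copies of 1 molecule cannot be recognised.

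Symbols, order, exon lengths and start sites came from annotations of another build, GRCm38, with a symbol for 55141 of 55401 IDs. No annotated gene with more than 3 counts in a library overlapped a receptor gene. After filterByExpr and TMM scaling, edgeR 4.0.16 in R 4.3.3 tested each gene (quasi-likelihood, 2 residual degrees of freedom, Benjamini-Hochberg over all 15832 tested genes, threshold 0.05). SE is the absolute log2 fold change divided by the root of the F statistic. Alternatives were other scalings, no filter, DESeq2 1.42.0, counts divided by 4, a replicate block, each library left out and the legacy quasi-likelihood fit, the last chosen after seeing the data.

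The receptor genes and all lists were chosen with earlier results of these data known. Named genes are the 10 receptors, Adcy7, the adaptor and kinase core, up to 8 genes with the smallest adjusted p per gene list and up to 3 abundant or absent markers per cell type; chromosome neighbours and others are named where a count needs them. Some genes that enter the counts over lists are not reported here by name.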

Additional observations from a re-analysis of the deposited data

How the results depend on the processing

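Over 11 alternatives, 8 of the 10 receptor genes kept their direction and their side of the threshold. Of 110 receptor values under alternatives 107 did so, 2 of Clec5a no longer passed, 1 of Clec7a newly passed and 0 reversed. The receptors called numbered 8 without the low-count filter and 9 under each of the other 10 alternatives, which includes each library left out in turn. Without knockout replicate 2 these were 3 higher and 6 lower, with Clec5a lost and Clec7a gained, against 4 and 5 with all libraries. All tested genes called ranged from 6091 (without control replicate 1) to 7852 (size factors of DESeq2). DESeq2 called 7110 genes and 9 receptors, and the legacy quasi-likelihood fit 7400 and 9. The adaptor and signalling list ranged from 15 to 19 called, the Syk and Card9 output list from 13 to 14, and the other lectins from 16 to 20. The median log2 fold change of all genes was 0.01 with TMM, 0.02 with DESeq2's size factors in edgeR and 0.07 in DESeq2.

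Replicate numbers are shared between the groups, but same-numbered libraries did not deviate together (correlation across genes 0.015), so the numbers are not taken as pairs. With the replicate block 7843 genes and 9 receptors were called.

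Precision is limited by the 2 libraries in each group. At low depth, Clec10a in the knockout rests on 26 and 15 counts, and Clec4a4, Clec4b1 and Mgl2 lie at or near the floor.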
